A study of Homo sapiens with 9 samples.

Results

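The response to unfolded proteins in the endoplasmic reticulum (ER), known as the unfolded protein response, was followed through 10 genes, HSPA5, HSP90B1, PDIA4, CRELD2, DNAJB9, SDF2L1, HERPUD1, SEL1L, EDEM1 and XBP1. They were chosen by name, as the rows whose human Ensembl identifier maps to these symbols, and each symbol had exactly 1 row among the 60448 rows of the count table. All 10 passed the filter on low counts. The data are RNA sequencing counts per gene from 9 libraries labelled Huh7, the name of an established human hepatocellular carcinoma cell line, grown in DMEM. Most liver markers that define such cells were at or near 0 in all 9 libraries (ALB at most 0.602 CPM and HNF4A at most 0.181 CPM, in the unit explained below). The liver marker FOXA2 went the other way, at 59.2 to 90.8 CPM over all libraries, and TF reached 6.59 CPM. The low markers go against the label, so the identity of the line is in question. OPA1 was knocked down in sets N_28 (3 libraries) and N_30 (3 libraries), with 3 control libraries. The knock-down was done with lentivirus, and the labels carry that same treatment text for the control libraries without naming a control construct. The meaning of the names N_28 and N_30 is not given. Separate cultures are not stated either, so p-values here reflect only the variation among these libraries, possibly technical. OPA1, the GTPase that fuses inner mitochondrial membranes, stood at 55.6 ± 2.25 CPM in N_28, 64.5 ± 1.30 CPM in N_30 and 88.7 ± 5.28 CPM in control libraries (SD, n = 3 each; CPM are counts normalised to library size after TMM scaling), and every knock-down library lay below every control library.

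The unfolded protein response answers an excess of unfolded proteins in the ER lumen. The membrane sensors IRE1 (gene ERN1), PERK (gene EIF2AK3) and ATF6 act through the transcription factors XBP1, ATF4 and cleaved ATF6, which raise genes for chaperones, protein folding and the removal of misfolded proteins. Liver cells, the tissue the label names, secrete much protein and make heavy use of this pathway. The design text of the series asks what lowering OPA1 does in the cells under that label, and the comparisons below put that question to the 10 genes.

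The promoters of 6 of the 10 genes hold an exact copy of an ER stress response element, and they are shown because this shared feature lies outside the counts. The element ERSE, read by ATF6 with NF-Y and also by XBP1, is CCAAT and CCACG with 9 bases between them. ERSE-II is ATTGG and CCACG with 1 base between them. Both strands of the RefSeq promoter windows (GRCh38.p14, 250 bases before to 50 after the start of the gene) were searched. These starts are RefSeq's and differ from the ends of the GENCODE genes given further on, so a window can overlap the GENCODE gene, as for HERPUD1, HSP90B1 and XBP1. ERSE was found in HSPA5, HSP90B1, XBP1 and CRELD2, which is 4 of 10 members, against 0.0916% of 27305 genes with a window. ERSE-II was found in HERPUD1 and SDF2L1, 2 of 10 members, against 0.0696% of genes. The core of the XBP1 element UPRE (TGACGTGG) was in 0 members and 0.927% of genes, and the ATF4 element CARE (TGATGNAAT) in 0 members and 1.22% of genes. These genes are textbook targets of the pathway, and the matches describe letters in a window, not binding. The 250 bases before the start are printed for 4 genes, 5′ to 3′ along the gene, with each whole element, spacer included, in capitals. HERPUD1 (chr16:56931892-56932141, plus strand) is shown for ERSE-II, 117 to 107 bases before the start. HSPA5 (chr9:125241344-125241593, minus strand) holds its ERSE 66 to 48 bases before the start. XBP1 (chr22:28800570-28800819, minus strand) holds it 52 to 34 bases before the start. HSP90B1 (chr12:103930160-103930409, plus strand) holds a pair, 194 to 176 bases before the start and, on the other strand, 89 to 71 bases before it.

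HERPUD1: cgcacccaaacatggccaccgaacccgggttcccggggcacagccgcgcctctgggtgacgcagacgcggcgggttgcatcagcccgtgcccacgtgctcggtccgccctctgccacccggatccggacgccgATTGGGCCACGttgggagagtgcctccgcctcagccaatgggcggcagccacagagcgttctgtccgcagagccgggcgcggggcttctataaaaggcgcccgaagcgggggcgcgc

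HSPA5: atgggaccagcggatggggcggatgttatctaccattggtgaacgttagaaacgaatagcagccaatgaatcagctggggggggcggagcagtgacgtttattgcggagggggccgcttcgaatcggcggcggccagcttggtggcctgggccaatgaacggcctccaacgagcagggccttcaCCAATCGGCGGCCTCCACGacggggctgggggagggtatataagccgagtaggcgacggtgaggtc

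XBP1: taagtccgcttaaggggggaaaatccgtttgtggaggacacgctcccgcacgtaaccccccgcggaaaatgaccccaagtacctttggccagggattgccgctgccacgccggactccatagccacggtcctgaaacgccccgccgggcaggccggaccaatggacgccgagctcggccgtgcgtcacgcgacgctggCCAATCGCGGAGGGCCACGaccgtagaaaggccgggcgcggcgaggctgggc

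HSP90B1: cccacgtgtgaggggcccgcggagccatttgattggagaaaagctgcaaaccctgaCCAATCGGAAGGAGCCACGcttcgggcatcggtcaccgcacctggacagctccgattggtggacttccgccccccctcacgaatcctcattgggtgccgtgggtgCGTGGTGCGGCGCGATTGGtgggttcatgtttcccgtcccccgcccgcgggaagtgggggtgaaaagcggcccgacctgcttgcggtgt

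Of the 10 genes, HERPUD1 and PDIA4 rose in N_28, none passed the threshold in N_30, and no gene fell in either. The threshold was an adjusted p of 0.05 (edgeR's quasi-likelihood test, Benjamini-Hochberg adjustment over all 15019 tested genes). The 2 genes higher in N_28 compare with 4.49% of all tested genes called higher there, and the 0 lower with 5.75%. In N_30, 0.459% of all genes were called higher and 0.406% lower, and of the 10 members 3 were higher and 0 lower at an unadjusted p under 0.05 (HERPUD1, CRELD2 and SDF2L1), with 1 called by DESeq2. The log2 fold change was above 0 for 9 of 10 members in N_28 (median 0.111) and for 9 of 10 in N_30 (median 0.145). Over all tested genes 49.7% were above 0 in N_28 and 49.8% in N_30, each with a median of -0.001. Both comparisons use the same 3 control libraries, so they are not independent of each other. The 10 genes also varied together within groups, as described below, so they are not separate observations. In bulk RNA fewer cells of a type and less RNA per cell cannot be told apart.

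**Figure D1:**
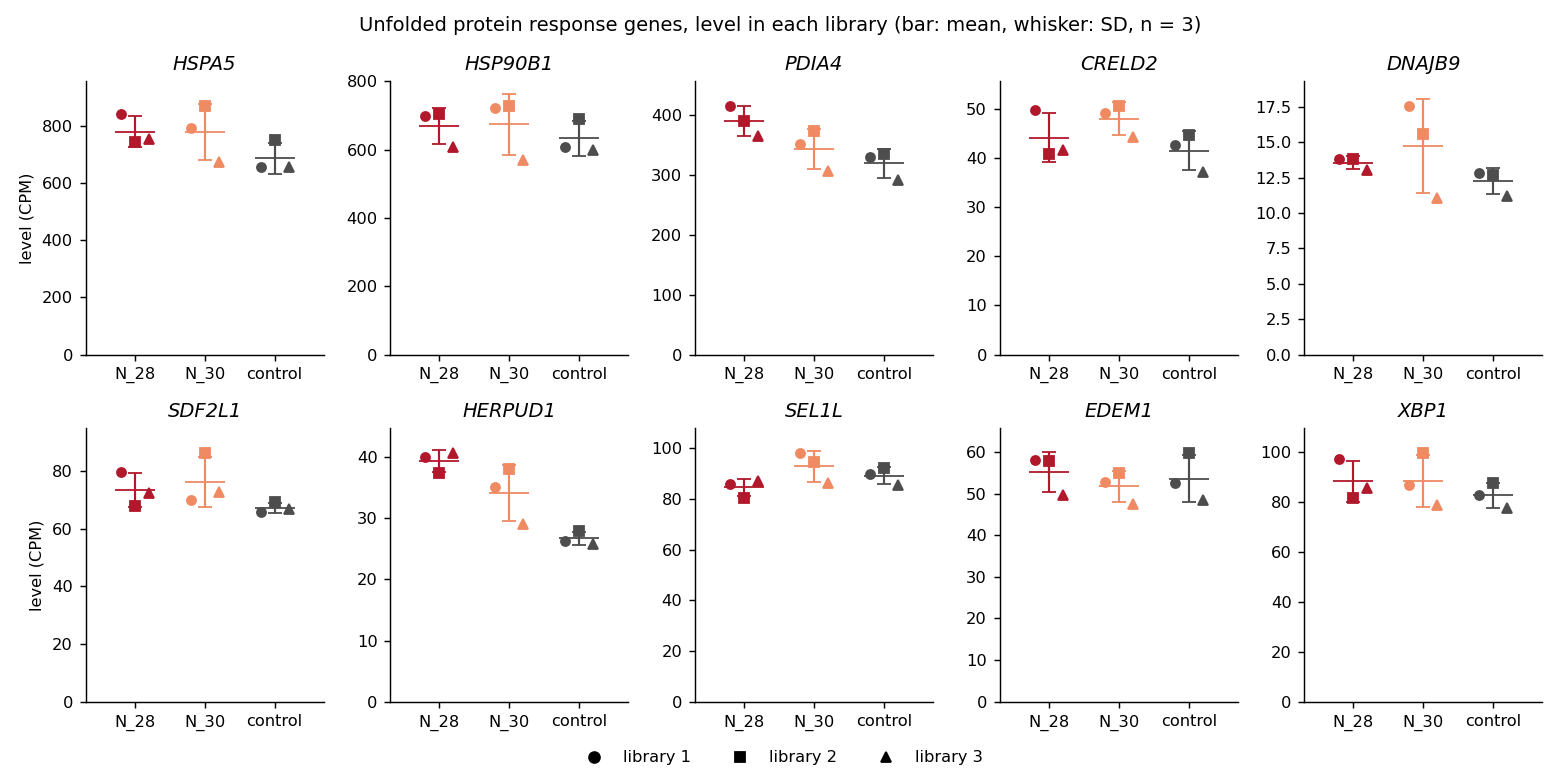
Level in CPM (vertical axis, from 0) of the 10 genes in each of the 9 libraries, with groups N_28, N_30 and control along the horizontal axis; symbols mark the library number, horizontal bars the mean and whiskers the SD (n = 3). HERPUD1 in the N_28 and N_30 libraries lies above all control libraries, while most other genes overlap between groups. Library 3 is often the lowest in N_30 and control.

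Degradation of ER proteins held the gene with the largest change among the 10. HERPUD1 (ENSG00000051108, chromosome 16, 56932048 to 56944863, plus strand; positions of whole genes are those of GENCODE release 29 for GRCh38) encodes HERP, an ER membrane protein that helps assemble the machinery of ER-associated degradation. It stood at 40.1, 37.4 and 40.7 CPM in N_28 libraries 1, 2 and 3, at 35.1, 38.1 and 29.1 CPM in N_30, and at 26.4, 28.0 and 25.9 CPM in control. No knock-down library overlapped the control libraries, and the lowest of them was N_30 library 3. In N_28 it rose by 0.56 on the log2 scale (SE 0.09, adjusted p = 0.00126, edgeR's quasi-likelihood test), a level 1.48 times that of control. It kept this call under all 17 alternatives, with adjusted p-values from 1.40e-08 to 0.00747. The N_30 value of 0.35 (SE 0.09, edgeR adjusted p = 0.113) fell short of the threshold. A block on the replicate number treats same-numbered libraries of all 3 groups as matched, which no label states. With the block the N_30 value was 0.35 with an adjusted p of 0.0323 (edgeR). HERPUD1 was then the 1 member called, where 1.55% of all genes were called higher and 1.27% lower. Over 17 alternatives the adjusted p ran from 0.00965 to 0.425, with 5 calls. Among these was the fit without N_30 replicate 3, at 0.45 with an adjusted p of 0.0119 (edgeR). Within pairs of the same library number, N_30 lay above control by 0.41, 0.45 and 0.17 on the log2 scale in libraries 1, 2 and 3.

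The other members of the degradation machinery did not pass in either set. SEL1L (ENSG00000071537, chromosome 14, 81471549 to 81533861, minus strand) encodes the scaffold of the HRD1 ubiquitin ligase. It had 85.9, 80.6 and 87.2 CPM in N_28, 98.2, 94.5 and 86.2 CPM in N_30 and 89.8, 92.2 and 85.7 CPM in control. The groups overlapped, with log2 fold changes of -0.08 in N_28 (SE 0.06, edgeR adjusted p = 0.508) and 0.06 in N_30 (SE 0.06, edgeR adjusted p = 0.799). EDEM1 (ENSG00000134109, chromosome 3, 5187646 to 5219957, plus strand), a lectin-like protein that directs misfolded glycoproteins to degradation, had 58.0, 57.9 and 49.6 CPM in N_28, 52.7, 54.9 and 47.6 CPM in N_30 and 52.5, 59.7 and 48.5 CPM in control. Its groups overlapped as well, with log2 fold changes of 0.04 (95% interval -0.17 to 0.26) in N_28 and -0.05 (95% interval -0.27 to 0.17) in N_30. An antisense gene overlaps exons of EDEM1, and whether counting used strand is unknown, so reads of the pair may be mixed.

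Among the chaperones and foldases, PDIA4 rose in N_28. PDIA4 (ENSG00000155660, chromosome 7, 149003062 to 149028641, minus strand) encodes ERp72, a disulfide isomerase. It had 415, 389.6 and 365 CPM in N_28, 352, 373 and 307 CPM in N_30 and 331, 335 and 291 CPM in control. All N_28 libraries lay above all control libraries, while N_30 and control overlapped. The log2 fold change was 0.29 in N_28 (SE 0.08, edgeR adjusted p = 0.0347) and 0.11 in N_30 (SE 0.08, edgeR adjusted p = 0.677). The N_28 call held under 13 of 17 alternatives and was lost without control replicate 1 (adjusted p = 0.0577), control replicate 3 (adjusted p = 0.120), N_28 replicate 1 (adjusted p = 0.152) or N_28 replicate 2 (adjusted p = 0.0985), with adjusted p-values from 0.000429 to 0.152 over all 17.

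HSPA5 (ENSG00000044574, chromosome 9, 125234853 to 125241330, minus strand) encodes BiP, the main Hsp70 chaperone of the ER and the brake on all 3 sensors. It had 842, 744 and 754 CPM in N_28, 794, 870.5 and 674 CPM in N_30 and 656, 749.6 and 655 CPM in control. Control library 2 reached into the range of both knock-downs, so the groups overlapped. The log2 fold change was 0.18 in both sets (SE 0.09 each; adjusted p = 0.231 in N_28 and 0.462 in N_30, edgeR), with a 95% interval of -0.03 to 0.40 in N_28. HSP90B1 (ENSG00000166598, chromosome 12, 103930107 to 103953645, plus strand) encodes GRP94, the Hsp90 of the ER. It had 698, 704 and 609 CPM in N_28, 723, 728 and 571 CPM in N_30 and 609, 692 and 599 CPM in control. The lowest value of all lay in N_30 library 3, and the log2 fold changes of 0.08 (SE 0.09) in N_28 and 0.09 (SE 0.09) in N_30 did not pass (adjusted p = 0.659 and 0.784, edgeR). Exons of UQCC6 and TTC41P lie on the strand opposite to HSP90B1, and MIR3652 lies within it.

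CRELD2 (ENSG00000184164, chromosome 22, 49918167 to 49927540, plus strand), an ER-resident protein with disulfide isomerase activity, had 49.8, 40.9 and 41.6 CPM in N_28, 49.2, 50.6 and 44.2 CPM in N_30 and 42.7, 44.7 and 37.1 CPM in control. The groups overlapped, with log2 fold changes of 0.09 in N_28 (SE 0.09, edgeR adjusted p = 0.610) and 0.21 in N_30 (SE 0.09, edgeR adjusted p = 0.398). Exons of ALG12 overlap it on the other strand.

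The co-chaperones did not pass in either set. DNAJB9 (ENSG00000128590, chromosome 7, 108569568 to 108574850, plus strand) encodes ERdj4, a J-domain partner of BiP that also represses IRE1. It was the lowest of the 10, with 248 to 310 counts per library, and had 13.8, 13.8 and 13.0 CPM in N_28, 17.6, 15.6 and 11.04 CPM in N_30 and 12.9, 12.7 and 11.2 CPM in control. N_28 lay just above control in all libraries, and N_30 spread over both sides of it. The log2 fold changes were 0.14 in N_28 (SE 0.14, edgeR adjusted p = 0.595) and 0.26 in N_30 (SE 0.14, edgeR adjusted p = 0.521). Exons of PNPLA8 and THAP5 overlap it on the other strand. SDF2L1 (ENSG00000128228, chromosome 22, 21642261 to 21644298, plus strand), which forms a complex with J-domain proteins in the ER, had 79.9, 68.1 and 72.6 CPM in N_28, 70.1, 86.3 and 72.8 CPM in N_30 and 66.0, 69.3 and 66.8 CPM in control. All N_30 libraries lay above all control libraries, and N_28 library 2 lay within control. The log2 fold changes of 0.13 in N_28 (SE 0.08, edgeR adjusted p = 0.376) and 0.18 in N_30 (SE 0.08, edgeR adjusted p = 0.410) did not pass.

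XBP1 (ENSG00000100219, chromosome 22, 28794555 to 28800597, minus strand) encodes the transcription factor that IRE1 activates by cutting an intron out of its mRNA. Gene counts do not separate the cut from the uncut form. Its total level was 97.5, 81.8 and 85.8 CPM in N_28, 87.0, 99.8 and 78.8 CPM in N_30 and 83.0, 87.8 and 77.7 CPM in control. The 3 groups overlapped, and the log2 fold changes were 0.09 in N_28 (SE 0.09, edgeR adjusted p = 0.577) and 0.10 in N_30 (SE 0.09, edgeR adjusted p = 0.750). Rows of pseudogene copies of HSPA5, HSP90B1 and XBP1 took few or no reads, at most 0.220 CPM for HSP90B2P.

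**Figure D2:**
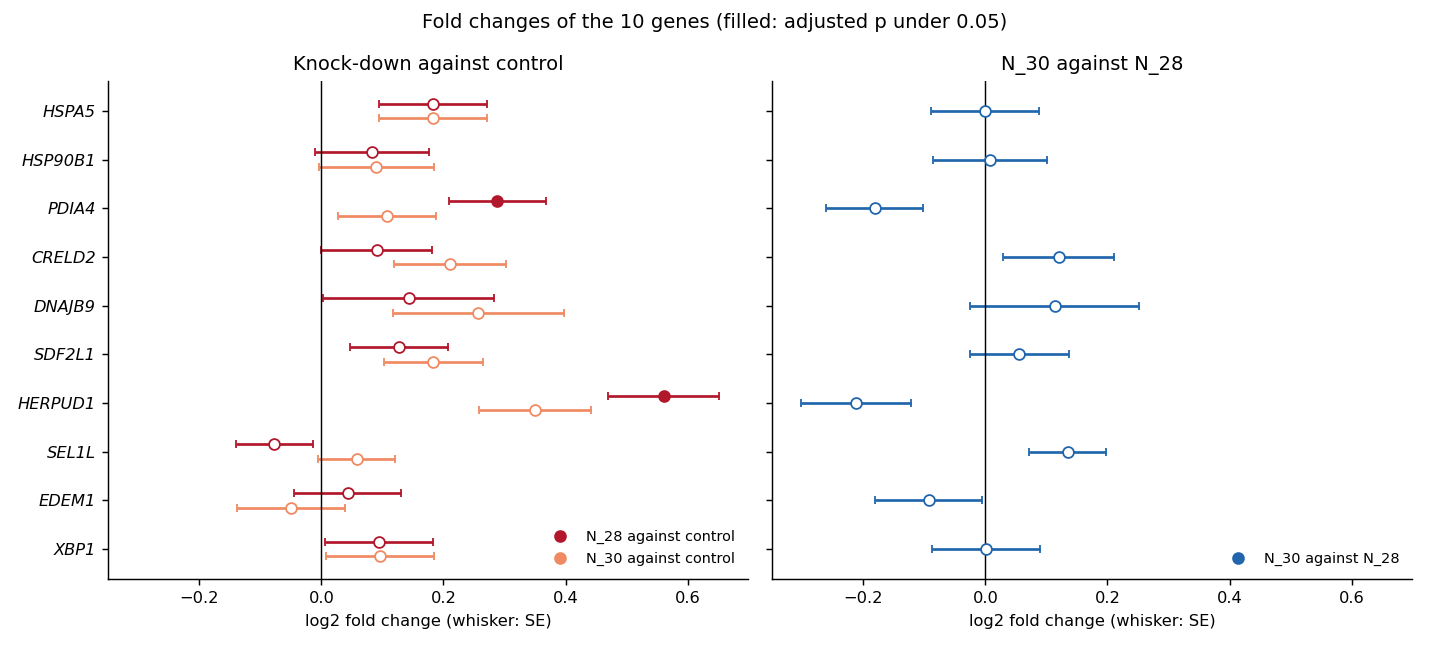
Log2 fold change (horizontal axis) of the 10 genes against control in N_28 (upper point of each pair) and N_30 (lower point), left, and in N_30 against N_28, right; whiskers are SE and filled points have an adjusted p under 0.05 (edgeR). HERPUD1 (0.56) and PDIA4 (0.29) in N_28 are the only filled points, and N_30 against N_28 has none.

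All 3 libraries of N_28 lay above all of control for HERPUD1, PDIA4 and DNAJB9, 3 of 10 members against 14.2% of all tested genes. In N_30 this held for HERPUD1 and SDF2L1, 2 of 10 against 7.53% of all genes. No label states that library numbers pair N_30 with control. Within pairs read that way, N_30 lay above control in all 3 for 7 of 10 members, against 18.2% of all genes. EDEM1 was above control in 1 of 3 pairs, and HSP90B1 and DNAJB9 in 2 of 3, with pair 3 at -0.07 and -0.02 on the log2 scale.

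Averaged over N_28 and N_30, HERPUD1 rose relative to control (log2 fold change 0.46, SE 0.08, adjusted p = 0.0102, edgeR) and was the 1 of 10 members called, where 0.533% of all genes were called higher and 1.25% lower. Without control replicate 1 its adjusted p was 0.0551, and over 16 alternatives it ran from 1.32e-06 to 0.0551. PDIA4 (0.20, SE 0.07) had an adjusted p of 0.230 and HSPA5 (0.18, SE 0.08) one of 0.346 in the same test. With the replicate number as a block, PDIA4 was called as well (0.20, adjusted p = 0.0202, edgeR), which makes 2 of 10 members, where 1.48% of all genes were called higher and 2.62% lower. That block also matches the N_28 libraries by number, a pairing that neither the labels nor the correlations given below were read as showing.

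Between the knock-down sets, 0 of 10 members were called, while 9.38% of all tested genes had a higher and 8.96% a lower level in N_30. HERPUD1 averaged 34.1 ± 4.56 CPM in N_30 and 39.4 ± 1.73 CPM in N_28 (SD, n = 3 each), a log2 fold change of -0.21 with a 95% interval of -0.43 to 0.01 (adjusted p = 0.124, edgeR). PDIA4 averaged 344 ± 33.7 CPM in N_30 and 389.8 ± 25.4 CPM in N_28, a log2 fold change of -0.18 with a 95% interval of -0.38 to 0.01 (adjusted p = 0.138, edgeR). At an unadjusted p under 0.05 these were the 2 members lower and 0 were higher, and DESeq2 called 0. The same HERPUD1 difference reached an adjusted p of 0.0499 without N_30 replicate 2, within a range of 0.0499 to 0.623 over 17 alternatives. PDIA4 was called in this contrast under 2 of 17 alternatives. For HERPUD1 and PDIA4 a difference between the sets was therefore neither shown nor bounded closely.

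The 10 genes varied together from library to library within groups. Deviations of log2 CPM from the group mean correlated above 0 in all 45 pairs of members over the 9 libraries, with a median Pearson r of 0.715 and a range of 0.096 to 0.934. The genes of a library share its preparation and depth, so this is a description only. Counts of members that moved the same way are likewise not counts of separate observations. SDF2L1 had the lowest median r with the other members (0.528) and PDIA4 the highest (0.848). N_30 library 3 was the lowest of its group for 9 of 10 members, and control library 3 also for 9 of 10, with SDF2L1 the exception in both. Among all tested genes library 3 was the lowest in 37.2% in N_30 and 31.7% in control. The members averaged 0.18 below the group mean in N_30 library 3 and 0.09 below it in control library 3, values of -0.176 and -0.090 on the log2 scale. Library 2 went the other way, highest of its group for 8 of 10 members in N_30 and for 9 of 10 in control. Among all tested genes library 2 was the highest in 30.5% in N_30 and 34.1% in control. The members averaged 0.124 above the group mean in N_30 library 2 and 0.09 above it in control library 2. In N_28 the pattern differed, with library 1 the highest for 7 of 10 members, against 33.1% of all tested genes. There the members averaged 0.087 in library 1, -0.035 in library 2 and -0.052 in library 3. Library 2 was the lowest for 6 of 10 members and library 3 for 4 of 10, against 32.2% and 36.1% of all tested genes. With libraries 1 and 2 alone, an alternative chosen after seeing the data, HERPUD1 in N_30 had a log2 fold change of 0.43 and an adjusted p of 0.0441 (edgeR), which lies within the range of alternatives given above. What sets single libraries apart within their group was not tested.

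**Figure D3:**
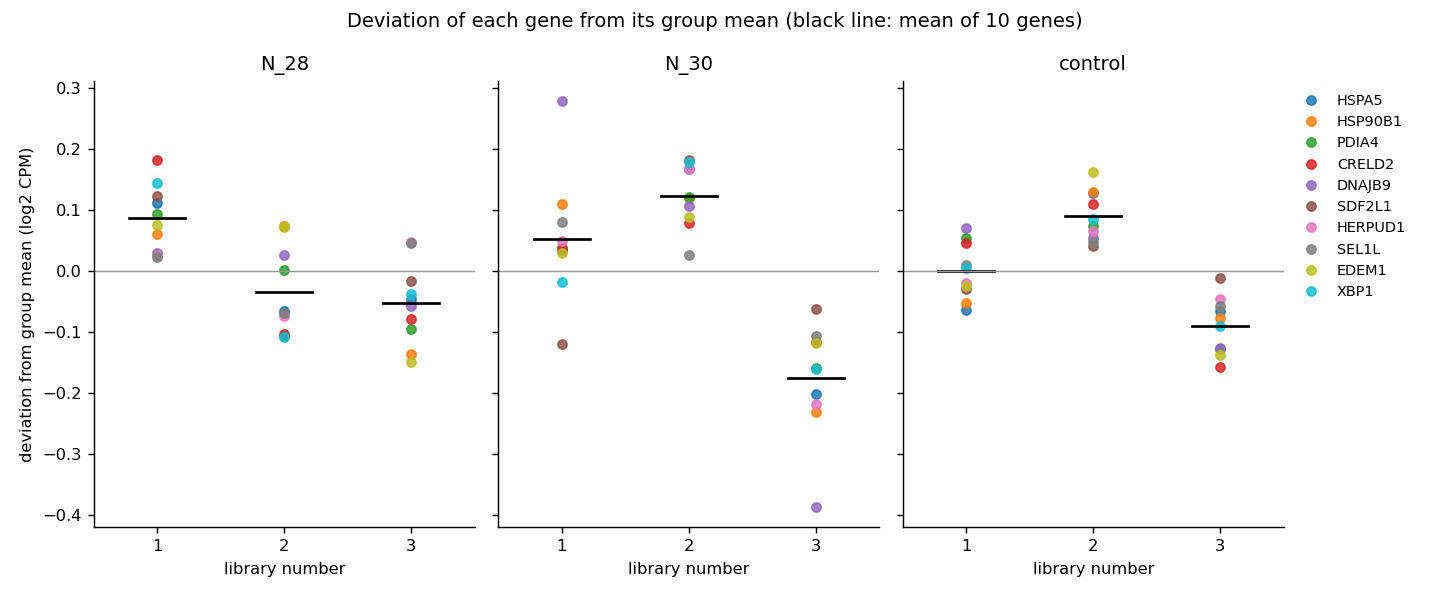
Deviation of each of the 10 genes from its group mean in log2 CPM (vertical axis) by library number in N_28, N_30 and control; points are genes and black lines the mean of the 10. All points of library 3 lie below 0 in N_30 and in control, where the means are -0.176 and -0.090. All points of library 2 lie above 0 in these groups, with means of 0.124 and 0.09.

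Per kb of exon the 10 genes span a wide range of levels. HSPA5 was highest with 200 ± 13.7 CPM per kb in N_28, 199 ± 25.3 in N_30 and 176 ± 13.9 in control (SD, n = 3 each). HSP90B1 (135 ± 10.8 CPM per kb in control), PDIA4 (97.4 ± 7.37), SDF2L1 (61.3 ± 1.58) and XBP1 (27.4 ± 1.67) followed. SEL1L (9.34 ± 0.346), CRELD2 (8.03 ± 0.761), EDEM1 (7.93 ± 0.845), HERPUD1 (5.18 ± 0.211) and DNAJB9 (4.32 ± 0.323) were lowest, on the same scale in control. Control libraries of neighbours in this order did not overlap, except those of CRELD2 and EDEM1. In N_28 HERPUD1 stood at 7.64 ± 0.336 CPM per kb, and in N_30 at 6.61 ± 0.885. The lengths are unions of all annotated exons, which overstates the length of genes with many isoforms.

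In 6 lists of other genes of the pathway, 7 of 122 tested genes rose in N_28 (5.74%, against 4.49% of all tested genes) and 6 fell (4.92%, against 5.75% of all tested genes). These shares are near those over all genes, and the counts by list below are descriptions. Of 30 other ER chaperones and foldases, 3 rose and 1 fell in N_28. The ER oxidase ERO1B rose by 0.44, to 47.0 ± 0.460 CPM against 34.5 ± 2.78 CPM in control, and the disulfide reductase DNAJC10 rose by 0.31. The collagen chaperone FKBP10 rose by 0.70 from a low level, to 6.34 ± 0.525 CPM against 3.89 ± 0.146 CPM in control. The J-domain protein DNAJC1 fell by 0.40 on the log2 scale. All 4 had an adjusted p of 0.00833 or less (edgeR). With libraries 1 and 2 only, FKBP10 was not called (adjusted p = 0.0592). HYOU1, a large Hsp70 of the ER, was at 0.22 (adjusted p = 0.0766, edgeR; 0.0146 to 0.254 over 17 alternatives) and CALR, calreticulin, at 0.12 (adjusted p = 0.360, edgeR). The median of the list was 0.08 in N_28 and 0.06 in N_30. In N_30, 24 of 30 genes were above 0 (80%, against 49.8% of all tested genes) and 0 were called. The other lists leaned the same way in N_30. Their shares above 0 ran from 66.7% (sensors, and the PERK and ATF4 arm) to 79.2% (entry into the ER and N-glycosylation). In N_28 the lists did not share this lean. There the shares ran from 30.4% (ER-associated degradation) to 66.7% (ER to Golgi transport, and the PERK and ATF4 arm), against 49.7% of all tested genes.

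Of 9 tested genes of the sensors and their processing, 0 rose in N_28 (1 higher at an unadjusted p under 0.05, 0 by DESeq2) and 1 fell, the sensor gene ATF6, with 54.7 ± 2.27 CPM in N_28, 66.0 ± 2.82 CPM in N_30 and 65.1 ± 1.25 CPM in control (log2 fold change -0.25 in N_28, adjusted p = 0.0129, edgeR). That call was lost without N_28 replicate 3 (adjusted p = 0.0633) and with libraries 1 and 2 only (adjusted p = 0.109). ERN1 (-0.02) and EIF2AK3 (0.14) did not pass in N_28. Of 23 tested genes of ER-associated degradation other than the members, 0 were called in N_28 by edgeR (1 higher and 3 lower at an unadjusted p under 0.05, 0 by DESeq2), with a median of -0.02.

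In the PERK and ATF4 arm, 2 of 15 genes rose and 0 fell in N_28, with a median of 0.24. The death receptor gene TNFRSF10B rose by 0.43 (adjusted p = 0.00211, edgeR). PPP1R15A, the phosphatase subunit GADD34 that reverses the translation block set by PERK, had a log2 fold change of 0.76 (adjusted p = 0.0247, edgeR), with 231 ± 57.9 CPM in N_28 and 136 ± 26.9 CPM in control. Its call was lost without control replicate 1, control replicate 3, N_28 replicate 1 or N_28 replicate 2 and by DESeq2, with a log2 fold change of 0.57 to 0.94 over 17 alternatives. DDIT3, the transcription factor CHOP, stood at 9.38 ± 1.51 CPM in N_28, 8.90 ± 1.45 CPM in N_30 and 6.59 ± 0.796 CPM in control. Its log2 fold change of 0.51 in N_28 lay at the threshold (adjusted p = 0.0517, edgeR) and was called under 9 of 17 alternatives, with adjusted p-values of 0.00410 to 0.223. ATF4 mRNA was at -0.04 in N_28 and -0.01 in N_30, although ATF4 is set mainly by translation.

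Outside folding, 2 of 24 genes of entry into the ER and N-glycosylation fell in N_28 and 0 rose. The translocating chain protein TRAM1 fell by 0.67 to 522 ± 87.4 CPM in N_28, against 832 ± 76.9 CPM in control (adjusted p = 0.00384, edgeR). The signal peptidase gene SEC11A fell by 0.19 (adjusted p = 0.0362, edgeR), a call held under 8 of 17 alternatives. Of 21 genes of ER to Golgi transport, 2 rose and 2 fell in N_28. The coat GTPase gene SAR1A fell by 0.61 and the cargo receptor SURF4 by 0.53 on the log2 scale, each called under all 17 alternatives, with a highest adjusted p of 0.000366 (edgeR). The retrieval receptor KDELR1 rose by 0.21 and SAR1B by 0.22, with calls under 12 and 4 of 17 alternatives. The calls of SEC11A, KDELR1 and SAR1B were lost under 4 or more of the fits that leave out 1 library.

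In N_30, 0 genes of these 6 lists were called by edgeR without the block, while 10 were higher and 1 lower at an unadjusted p under 0.05, and DESeq2 called 1 of them (SSR4). With the block 4 of 122 rose (3.28%, against 1.55% of all tested genes) and 1 fell (0.82%, against 1.27%). FKBP2 (0.30, adjusted p = 0.0381), the mannosidase MAN1B1 (0.25, adjusted p = 0.0143), the translocon-associated SSR4 (0.24, adjusted p = 0.0308) and the transcription factor CEBPB (0.54, adjusted p = 0.0111) rose, and ERO1B fell by 0.29 (adjusted p = 0.0345), all by edgeR. ERO1B thus rose in N_28 and, with the block, fell in N_30, and N_30 against N_28 gave -0.73 (adjusted p = 1.015e-05, edgeR).

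**Figure D4:**
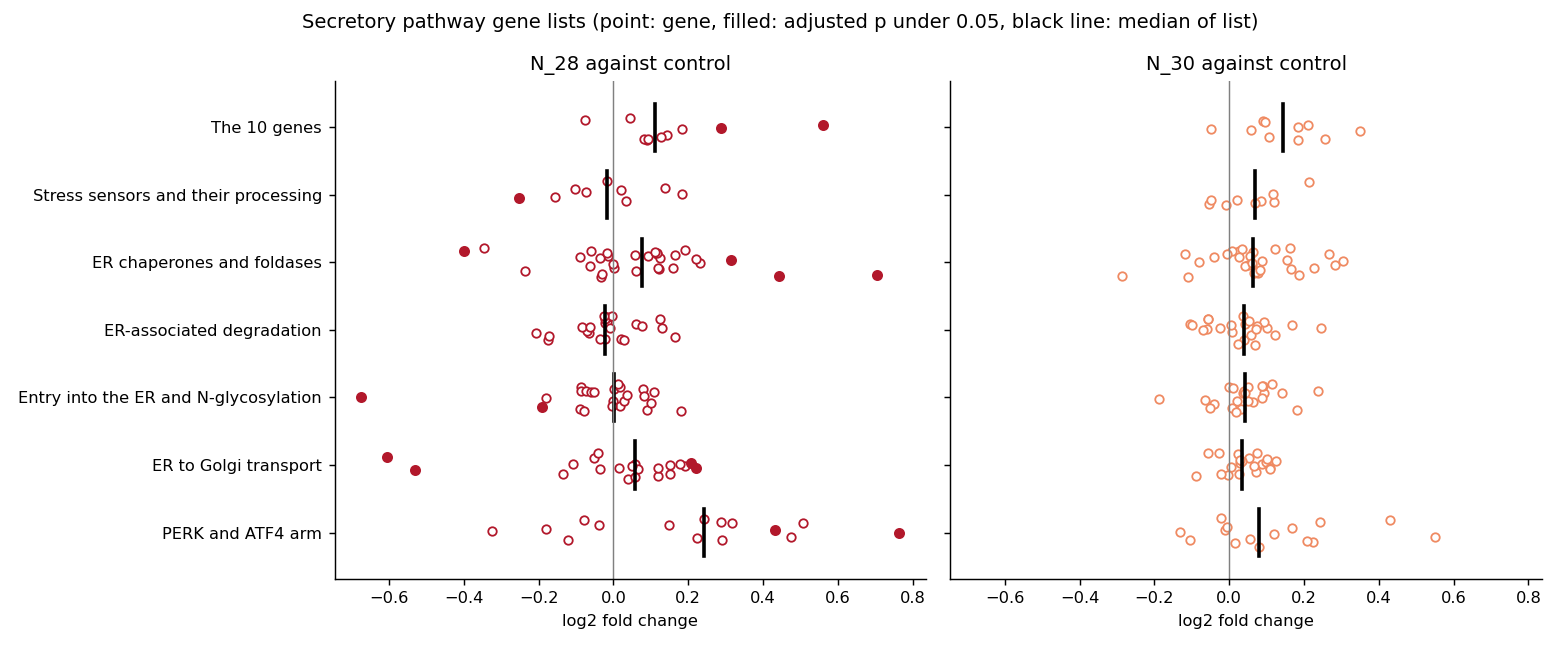
Log2 fold change against control (horizontal axis) of the 10 genes and of 6 lists of secretory pathway genes in N_28 (left) and N_30 (right); each point is a gene, filled points have an adjusted p under 0.05 (edgeR) and black lines are medians. The 10 genes have medians of 0.111 and 0.145, and the PERK and ATF4 arm has 0.241 and 0.080.

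The genes whose log2 CPM over the 9 libraries was most like the mean standardised pattern of the 10 members were CALR (Pearson r 0.969), AIFM2 (0.968), OPTN (0.961), SRPRA (0.960) and CDKN1A (0.959), among 10652 candidate genes above a mean of 5 CPM. This pattern joins differences between groups and between libraries.

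Total counts ran from 16476389 to 22863328 per library. Of 9 hepatocyte and hepatoma markers, 7 stayed under 2 CPM in all libraries, among them APOA1 and TTR (at most 0.175 and 0.267 CPM), AFP (at most 1.31 CPM) and APOB (0 counts), while the mesenchymal gene VIM was at 1370.3 to 1544 CPM. The remaining liver markers were TF and FOXA2, whose levels follow, and FOXA2 was well above 2 CPM in every library. Of all 18 markers, 6 separated the N_28 libraries from the other 6, in both directions. TF (0.220 to 0.830 CPM in N_28, 2.77 to 6.59 in N_30 and 3.32 to 5.38 in control), SERPINA1 (at most 0.193 CPM in N_28, 0.654 to 1.83 in N_30 and 0.409 to 0.897 in control), KRT8 (292 to 336 CPM in N_28, 462 to 489 in N_30 and 380.3 to 447 in control) and CDH2 (63.7 to 69.2 CPM in N_28, 142 to 165 in N_30 and 140.4 to 155 in control) were lower there. FOXA2 (82.1 to 90.8 CPM in N_28, 59.2 to 69.3 in N_30 and 63.6 to 69.5 in control) and PECAM1 (2.03 to 2.60 CPM in N_28, 1.16 to 1.76 in N_30 and 1.12 to 1.52 in control) were higher. The part of these 6 markers in the N_28 results was not tested. How many of all tested genes separate N_28 from the other 6 libraries was not counted. Against control alone, all N_28 libraries lay above all control libraries for 2130 of 15019 tested genes and below them for 2186. The marker count is therefore a description only. The leukocyte marker PTPRC was at most 0.511 CPM. Tested genes of chromosome 22, which carries XBP1, SDF2L1 and CRELD2, had a median log2 fold change of -0.11 in N_28 and 0.058 in N_30. The part of that shift in the values of these 3 genes was not tested, and chromosome 16, with HERPUD1, had medians of -0.002 and 0.015. Chromosome 9, with HSPA5, had medians of -0.063 and 0.027, and chromosome 14, with SEL1L, 0.061 and -0.026. Those of chromosomes 3, 7 and 12 ran from -0.022 to -0.004 in N_28 and from -0.008 to 0.035 in N_30. The part of these shifts was not tested either.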

How the data were processed

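The count table holds raw read counts per human Ensembl gene, whole numbers as the authors deposited them, for 9 libraries of total RNA. The submitters' processing notes list mm8, a mouse build, although the identifiers are human. No source used here gives the aligner, counter, annotation or strand setting. Symbols came from a gene name table (56434 rows) and GENCODE release 29 (434 rows), leaving 3580 unnamed. A count of 3 corresponds to at most 0.182 CPM, for counting error only.

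Genes past edgeR's filter (minimum count 10) were fitted in edgeR 4.0.16 (R 4.3.3) by quasi-likelihood, with TMM scaling, all 9 libraries and 3 group terms. Adjustment followed Benjamini-Hochberg over all tested genes. The SE came from the fold change and the F statistic. The 95% intervals use 6 residual degrees of freedom without edgeR's moderation and are wider than its p implies. The script was tested on simulated data. Same-numbered N_30 and control libraries deviated together (correlations 0.122, 0.169 and 0.306). Their numbers are therefore read as pairs, from the data and not the labels. Same-numbered N_28 and N_30 libraries gave 0.0268, -0.0253 and 0.235. Correlations between libraries of different numbers were not computed, so the reading as pairs was not tested.

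The members, the 6 lists and the rule for named genes were chosen with earlier results of these data known. Named were all members, OPA1, up to 4 called genes per list, 7 fixed stress genes and the 5 genes most like the members. Genes called only with the block were named after their values were seen. Alternatives covered scaling, low-count filters, DESeq2 1.42.0, the block, the groups fitted and leaving out libraries.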

Additional observations from a re-analysis of the deposited data

How the results depend on the processing

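HERPUD1 in N_28 kept its direction and call in all 17 alternatives. Of the members' values, 164 of 170 in N_28 and 163 of 170 in N_30 kept direction and side of the threshold. Scaling by DESeq2's size factors or by library totals moved the median of all genes by at most 0.012. Members called in N_28 (2) ran from 1 to 2 when 1 library was left out, and all genes called (1538) from 967 (without N_28 replicate 1) to 1712. In N_30 the members called (0) became 1, HERPUD1, without the low-count filter, by DESeq2 and with libraries 1 and 2 only, an alternative chosen after seeing the data, and ran from 0 to 1 when 1 library was left out. All genes called in N_30 (130) became 523 without the filter and 267 by DESeq2, and ran from 58 (without N_30 replicate 2) to 180. In the mean contrast, members called (1) became 2 without the filter and ran from 0 (without control replicate 1) to 1, while all genes called (268) became 705 without the filter and 408 by DESeq2, and ran from 134 to 322. In N_30 against N_28, members called (0) became 1 without the filter and ran from 0 to 1. The cause of these shifts was not tested.

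With the replicate number as a block, members called became 1 in N_30, 2 in the mean contrast and 1 in N_30 against N_28, and all genes called became 424 in N_30 and 616 in the mean contrast. The numbers were not read as pairing N_28 with control (correlations -0.0588, 0.0358 and 0.142). The last of these exceeds the 0.122 of N_30 with control for number 1. The block was fitted over all 9 libraries, so it matched N_28 by number all the same. Its calls in the mean contrast and in N_30 against N_28 rest on that unread pairing. In N_30 against N_28 the block gave XBP1 -0.0026, and PDIA4 was called with the block (-0.18, adjusted p = 0.0176) and without the filter (-0.19, adjusted p = 0.0444).

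Values near 0 changed sign. In N_30 against N_28, HSPA5 was 0.009 with library totals, 0.0006 over genes averaging 5 CPM or more and 0.0702 with libraries 1 and 2 only, and without the filter HSP90B1 was -0.0005 and XBP1 -0.007. With libraries 1 and 2 only, EIF2AK3 was 0.0788 and ATF4 0.0068 in N_30. When 1 library was left out, log2 fold changes in N_28 ran from -0.0081 to 0.1445 for CRELD2, -0.0227 to 0.1262 for EDEM1, -0.0749 to 0.0192 for ERN1 and -0.1044 to 0.0641 for ATF4. In N_30 they ran from -0.1161 to 0.0336 for EDEM1, -0.0638 to 0.0946 for ATF4, -0.0727 to 0.057 for EIF2AK3, -0.0646 to 0.1636 for ERN1 and -0.0042 to 0.0546 for ATF6. In the mean contrast they ran from -0.037 to 0.0163 for SEL1L and -0.0694 to 0.0799 for EDEM1. In N_30 against N_28 they ran from -0.0878 to 0.0932 for HSPA5, -0.0578 to 0.114 for HSP90B1, -0.0939 to 0.08 for XBP1, -0.0275 to 0.2903 for DNAJB9 and -0.0413 to 0.1197 for SDF2L1. DNAJB9 had the fewest reads of the members; whether depth sets its spread was not tested.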
